A study of Mus musculus with 16 samples.

Results

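The 10 genes described here, Greb1, Oxtr, Wisp2, Nrip1, Ctsd, Stc2, Igfbp4, Ebag9, Rara and Bcl2, are classic transcriptional targets of the estrogen receptor, known mostly from breast and uterine cells. They were picked by their symbols, with earlier results of these data known, as 10 of the 41388 genes in the count table, and all 10 were found there. Total RNA sequencing of quadriceps muscle was used to follow them in C57BL/6 mice at post natal day 36, 1 library per mouse. The 4 groups were wild type (WT) mice, WT mice given tamoxifen (WT + TAM), Mtm1 knockout mice (Mtm1 KO) and Mtm1 KO mice given tamoxifen (Mtm1 KO + TAM), and the knockout is a germ line deletion of exon 4 of Mtm1, so that every tissue of the animal carries it. The 2 treated groups ate chow with tamoxifen citrate at 40 mg/kg from day 21, and the untreated groups ate control chow without the drug. Per the paper, sucrose was mixed into the drug chow, and placebo was standard chow. It also reports lower body weight on this dose in both genotypes. The part of diet and weight in the differences between treated and untreated groups was not tested. The main set held the 14 libraries that the study itself used, 3 of WT, 4 of WT + TAM, 3 of Mtm1 KO and 4 of Mtm1 KO + TAM, with 25702605 to 29847222 counts each. Day 36 is the age in the labels, and the study's supplement gives a slightly younger age and littermates. The sex of the sequenced animals is not stated. The paper names males for its injected controls and for the WT mice on high-dose tamoxifen whose fiber size it measured. Mice lacking Mtm1, which encodes the lipid phosphatase myotubularin, are a model of X-linked myotubular myopathy.

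The estrogen receptor is a transcription factor that is switched on by estradiol. It binds DNA as a dimer at estrogen response elements, or is tethered to other factors, and recruits coactivators or corepressors to nearby genes. Tamoxifen occupies the same pocket. It blocks the receptor in breast and acts as an agonist in uterus and bone, and which of these holds in a tissue depends on the coregulators present. The 10 genes are usually read as a panel of receptor activity. They include a receptor coregulator (Greb1), a corepressor (Nrip1), a retinoic acid receptor (Rara), a peptide hormone receptor (Oxtr), secreted proteins (Wisp2, Stc2, Igfbp4), a lysosomal protease (Ctsd), a Golgi protein (Ebag9) and an inhibitor of apoptosis (Bcl2).

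The targeted gene was read first. Mtm1 had 341 to 369 counts in WT, 282 to 459 in WT + TAM, 63 to 76 in Mtm1 KO and 53 to 97 in Mtm1 KO + TAM. These ranges did not overlap between genotypes. The library labelled WT replicate 1, which the study left out without a stated reason, had 74 Mtm1 counts, a value inside the range of the Mtm1 KO libraries. The library labelled KO replicate 12, also left out by the study, had 85. Markers of skeletal muscle fiber, the labelled tissue, were detected for 8 of 8 genes, and their summed level ran from 54203 to 101786 RPKM, a read count divided by gene length and library size. Unlike its Mtm1 count, this sum in the library labelled WT replicate 1 was on the WT side. It was 114952 RPKM, against 86066 to 101786 in WT and 61171 to 69955 in Mtm1 KO. Its summed immune cell markers were at 6.96 RPKM, against 8.32 to 13.3 in WT and 18.8 to 32.8 in Mtm1 KO. The genotype of this library was not tested.

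Short stretches of DNA before the start sites are shown because binding of the receptor to such elements is the textbook route to these genes. Windows of the 250 bases before each RefSeq start (GRCm38.p6) were available for 8 members, in 13 windows. Wisp2 and Ebag9 had no entry. The letters searched were the 5-base core of the estrogen response element, GGTCA or its complement TGACC, the longer form AGGTCA or TGACCT, which contains it, and the full palindrome, in which GGTCA and TGACC flank any 3 bases, each read on both strands. Greb1, Oxtr, Nrip1 and Ctsd each held the core in the window of their most upstream start, and so did 1 of the 4 windows of Rara. The window of a second, downstream start of Greb1 (chr12:16757240-16757489) held 2 cores. The windows of Stc2, Igfbp4 and Bcl2 held none. The full palindrome was in none of the 13 windows. Over all 32851 mouse windows of this length the core was present in 35.2%, the longer form in 14.02% and the palindrome in 0.0639%, so that the core is a common string. The sequences of the 3 members discussed most and of Ctsd, whose window held 3 cores, follow, 5′ to 3′ on the strand of the gene, with the cores in capitals. The windows of Oxtr and Ctsd run into the annotated gene, and the bases around each core alone are given for these.
Greb1, chr12:16800887-16801136, minus strand, core 83 bases before the start: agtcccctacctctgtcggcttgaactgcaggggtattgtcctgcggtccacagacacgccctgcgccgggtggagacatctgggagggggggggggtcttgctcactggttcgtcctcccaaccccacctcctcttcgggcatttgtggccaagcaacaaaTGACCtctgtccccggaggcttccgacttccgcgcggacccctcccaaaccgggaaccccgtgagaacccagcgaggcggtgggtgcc
Nrip1, chr16:76373828-76374077, minus strand, core 72 bases before the start: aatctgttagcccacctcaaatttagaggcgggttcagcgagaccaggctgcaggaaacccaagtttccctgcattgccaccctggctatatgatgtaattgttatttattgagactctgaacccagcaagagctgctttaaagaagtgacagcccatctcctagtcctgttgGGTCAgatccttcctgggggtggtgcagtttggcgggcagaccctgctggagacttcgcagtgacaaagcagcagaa
Oxtr, chr6:112489906-112489934, minus strand, core 92 bases before the start: agaggacaggcaGGTCAgtgccagagtgc
Ctsd, chr7:142388052-142388077, minus strand, core 236 bases before the start: tcccccacgTGACCtgtatccagtca
Ctsd, chr7:142387905-142387933, minus strand, core 89 bases before the start: ccgcgtctcacgTGACCcgttgagggcca
Ctsd, chr7:142387880-142387908, minus strand, core 64 bases before the start: gccaaacaagcgGGTCAgctgactccgcg
The Greb1, Oxtr and first Ctsd stretches also hold the longer form. A match of letters is a description of the window and not evidence of binding in muscle.

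Levels were compared between members on the RPKM scale, which divides by gene length. In WT, Ctsd was the most abundant member at 235 ± 22.3 RPKM (SD, n = 3), followed by Igfbp4 at 20.7 ± 3.99 and Ebag9 at 9.21 ± 0.539. Rara stood at 3.16 ± 0.430, Wisp2 at 2.32 ± 0.471, Nrip1 at 2.03 ± 0.954, Stc2 at 1.17 ± 0.525 and Bcl2 at 0.814 ± 0.154. Oxtr at 0.0340 ± 0.0225 and Greb1 at 0.0177 ± 0.0119 were close to the limit of detection, with 1 to 6 and 1 to 7 counts per library. The libraries of neighbours in this order overlapped for Wisp2 and Nrip1, for Nrip1 and Stc2, for Stc2 and Bcl2 and for Oxtr and Greb1, and did not overlap for the other neighbours. On tamoxifen, Oxtr moved above Bcl2 in WT, at 1.48 ± 0.280 against 0.876 ± 0.156 RPKM (SD, n = 4), and the libraries of the 2 genes did not overlap. In Mtm1 KO + TAM the same genes stood at 1.01 ± 0.720 and 1.065 ± 0.309 RPKM and overlapped. Greb1 remained the lowest member in each of the 4 groups.

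**Figure D1:**
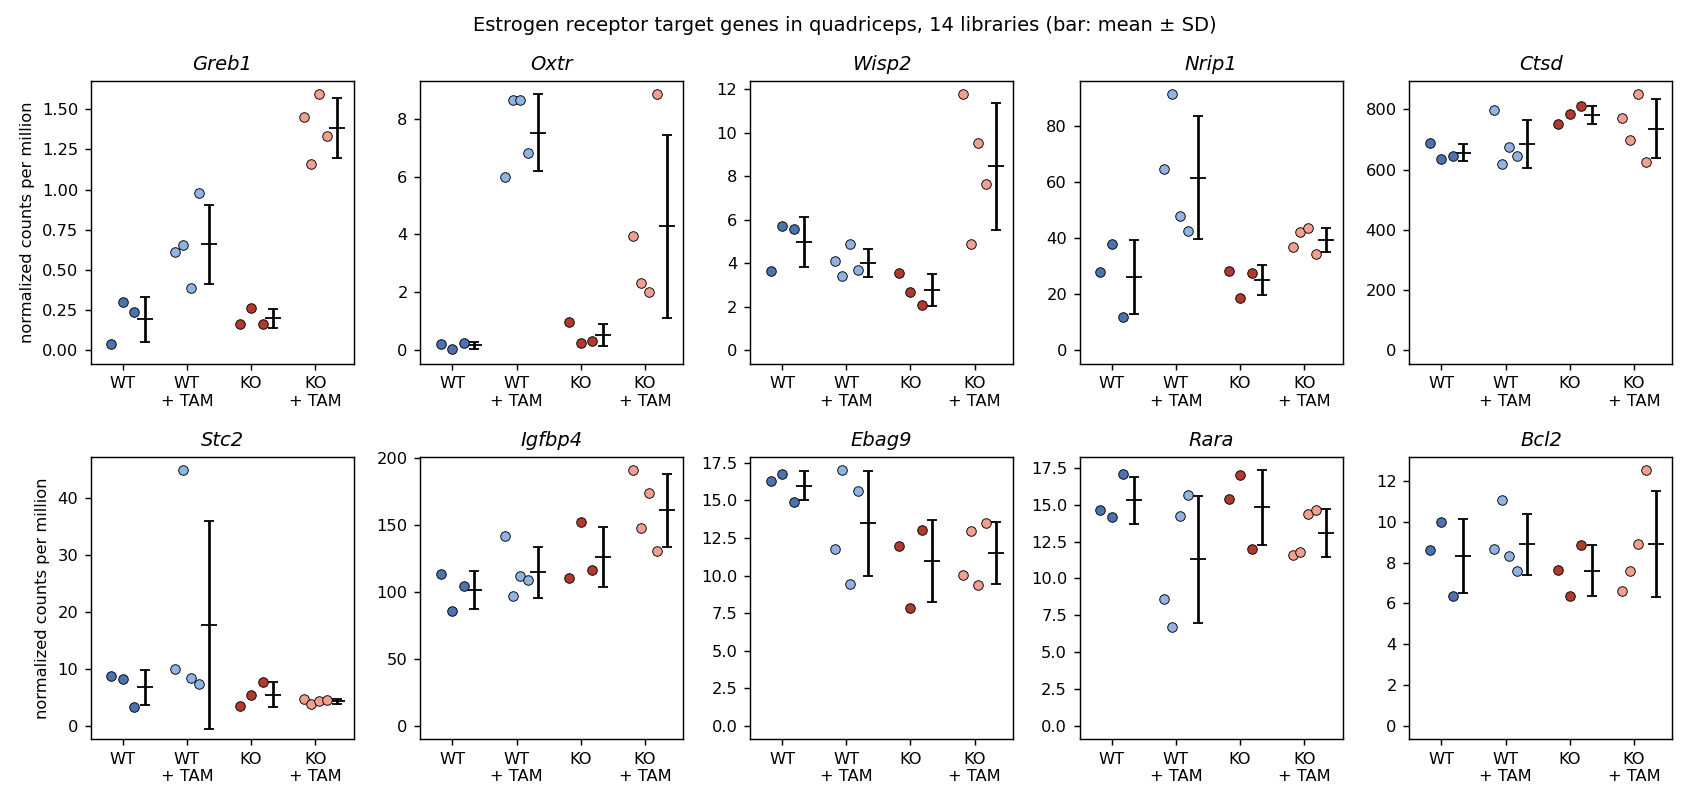
Normalized counts scaled to library size (CPM) of the 10 genes in each of the 14 libraries of the main set, with untreated and tamoxifen-treated (TAM) groups of both genotypes side by side and the mean ± SD drawn as a bar beside the points. Each panel has a linear axis of its own. Greb1, Oxtr and Nrip1 are higher on tamoxifen in both genotypes without overlap, Wisp2 in Mtm1 KO, and 1 WT + TAM library stands far above the rest for Stc2.

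The first question was whether the panel responded to tamoxifen in the diseased muscle and in WT muscle. Members were compared on CPM scaled by the trimmed mean of M values (TMM), and called changed where the quasi-likelihood test of edgeR, adjusted by Benjamini-Hochberg over all genes tested, gave an adjusted p up to 0.01. All 10 members passed the filter on low counts in both tamoxifen comparisons, but Greb1 and Oxtr, at 1 to 8 and 1 to 29 counts in untreated libraries, passed through the treated libraries and failed the filter between the untreated groups. A gene that enters in this way had to differ. The members called below by the quasi-likelihood test are these 2. They are also among the members counted by unadjusted p and by separate libraries, so all these counts are descriptions. In WT, 1 of the 10 was called, and over all 14544 genes tested 0.131% were called and 0.55% passed 0.05. There, 3 of the 10 had an unadjusted p of at most 0.05, against 10.7% of all genes. In Mtm1 KO, 0 of the 10 were called, and over all 15062 genes 0% were called. In that comparison 4 of the 10 members, Greb1 and Oxtr among them, had an unadjusted p of at most 0.05 in edgeR, against 7.55% of all genes. DESeq2 and edgeR's exact test each called 3 members (Greb1, Oxtr and Wisp2) and 72 genes in all. Wisp2 did not enter through the treated libraries. When the response was averaged over both genotypes in 1 fit of the 4 groups, 2 of the 10 were called, against 0.591% of 15556 genes, 3 passed 0.05, against 1.84%, and 5 had an unadjusted p of at most 0.05, against 14.1%. The median log2 fold change of the members was 0.28 in Mtm1 KO, where that of all genes was -0.01, and 0.14 in WT, where that of all genes was -0.0036. The libraries of treated and untreated mice did not overlap for 4 members in Mtm1 KO (Greb1, Oxtr, Wisp2, Nrip1) and for 3 in WT (Greb1, Oxtr, Nrip1), each of them higher on tamoxifen. Over all genes tested, 7.69% were separate in Mtm1 KO and 11.4% in WT. Those separate on the higher side made up 3.99% of all genes tested in Mtm1 KO and 5.07% in WT. The exact permutation test of a single gene cannot go below p = 0.0571 (two-sided, 35 splits) with 4 libraries against 3, and it gave that value for each of these 7 cases.

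Oxtr, the receptor for the hormone oxytocin, gave the largest log2 fold change of the panel in WT, and in Mtm1 KO one close to that of Greb1. It lies on chromosome 6 from 112473683 to 112489943 on the minus strand (GRCm38, GENCODE vM21). In the WT libraries it had 0.225, 0.0430 and 0.237 CPM, and in WT + TAM 5.98, 8.64, 8.64 and 6.83 CPM. In Mtm1 KO it had 0.963, 0.266 and 0.323 CPM, and in Mtm1 KO + TAM 3.95, 2.31, 2.02 and 8.86 CPM. The lowest treated library of either genotype was above the highest untreated one, and the treated Mtm1 KO libraries were spread far more widely (74% relative SD) than the treated WT libraries (18%). Oxtr rose in WT by 5.41 ± 0.40 on the log2 scale (SE; 42.4-fold, adjusted p = 8.81e-04 in edgeR), the second lowest p of the 14544 genes, and the call held without each library in turn (adjusted p 0.00112 to 0.00885). In Mtm1 KO its log2 fold change was 3.03 ± 0.63 (adjusted p = 0.187), with 2.40 without replicate 16 of KO + TAM, below the 2.80 of Greb1 under that setting, and 3.83 without KO replicate 9. The mean over both genotypes was 4.23 ± 0.44 (adjusted p = 1.93e-04). Oxtr passed the filter through its treated libraries, so these p values, the rank and the held call are descriptions. The response in Mtm1 KO minus that in WT was -2.38 ± 0.88 (unadjusted p = 0.0163, adjusted p = 1 in edgeR), with -1.58 without KO replicate 9 and -3.01 without replicate 16 of KO + TAM. With the 16 libraries, the log2 fold change in WT was 4.96 (adjusted p = 0.00148).

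Greb1, a coregulator that binds the estrogen receptor and is among its most used target genes in breast cancer cells, responded from a very low base. It lies on chromosome 12 from 16670615 to 16800886 on the minus strand. Its values were 0.0375, 0.301 and 0.237 CPM in WT and 0.611, 0.652, 0.389 and 0.981 CPM in WT + TAM. In Mtm1 KO they were 0.166, 0.266 and 0.162 CPM, and in Mtm1 KO + TAM 1.45, 1.16, 1.60 and 1.33 CPM. These levels rest on 1 to 8 counts per untreated library and 9 to 56 per treated library. In the main set the groups were separate in both genotypes. With 16 libraries the WT groups overlapped, with the library labelled WT replicate 1 at 0.464 CPM and WT + TAM replicate 7 at 0.384. The log2 fold change was 2.77 ± 0.41 in Mtm1 KO (SE; 6.83-fold, unadjusted p = 2.87e-05, adjusted p = 0.0600 in edgeR) and 1.78 ± 0.64 in WT (3.42-fold, adjusted p = 0.352). Over both genotypes Greb1 rose by 2.28 ± 0.37 (adjusted p = 0.00395 in edgeR). That call was lost, with adjusted p 0.0102 to 0.0169, when WT replicate 4, WT + TAM replicate 8, KO replicate 9, 10 or 11 or KO + TAM replicate 15 was left out. Greb1 too passed the filter through its treated libraries, so its p values on tamoxifen are descriptions. The 2 responses differed by 1.00 ± 0.74 (adjusted p = 1). An antisense gene of the annotation overlaps 7.68% of the exon bases of Greb1, and whether strand was used in counting is not given in the sources used here.

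Nrip1 encodes RIP140, a corepressor that the liganded receptor both recruits and induces, and which restrains oxidative metabolism in muscle and fat. The gene lies on chromosome 16 from 76287400 to 76373827 on the minus strand. Its WT libraries had 28.1, 38.2 and 12.02 CPM and its WT + TAM libraries 64.7, 91.7, 47.9 and 42.7 CPM. The Mtm1 KO libraries had 28.3, 18.8 and 27.7 CPM and the Mtm1 KO + TAM libraries 37.1, 42.1, 43.6 and 34.4 CPM. Treated libraries were above untreated ones in 4 of 4 cases in each genotype. The log2 fold change was 1.25 ± 0.37 in WT (SE; 2.37-fold, adjusted p = 0.249 in edgeR), 0.64 ± 0.16 in Mtm1 KO (1.56-fold, adjusted p = 0.278) and 0.95 ± 0.22 on average (adjusted p = 0.0424), which does not pass 0.01. DESeq2 called the average response (adjusted p = 9.79e-04), and edgeR without the filter on low counts did too (adjusted p = 0.00791). Without each library in turn, its adjusted p in the quasi-likelihood test was 0.0158 to 0.109.

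Wisp2, a secreted matrix protein of the CCN family that is induced by estrogen in breast cells, stood apart from the other members by its values in the 2 genotypes. It lies on chromosome 2 from 163820861 to 163833146 on the plus strand and is named Ccn5 in GENCODE vM21. The untreated and treated WT libraries overlapped, at 3.64, 5.72 and 5.58 CPM and 4.10, 3.43, 4.88 and 3.67 CPM. In Mtm1 KO it had 3.55, 2.69 and 2.10 CPM, and in Mtm1 KO + TAM 11.8, 4.90, 9.54 and 7.63 CPM, with no overlap. The log2 fold change was 1.59 ± 0.31 in Mtm1 KO (SE; 3.02-fold, unadjusted p = 2.87e-04, adjusted p = 0.140 in edgeR) and -0.31 ± 0.23 in WT (adjusted p = 0.684). The difference between the 2 responses was 1.91 ± 0.40, with an unadjusted p of 2.02e-04 in edgeR, the lowest of the 10 members, and an adjusted p of 0.314. None of the 10 members was called for this difference in edgeR, where 0% of the 15556 genes were called and 4.27% had an unadjusted p of at most 0.05, as had 3 members (Oxtr, Wisp2 and Stc2). DESeq2 called 12 genes for it, Wisp2 among them (adjusted p = 0.00656).

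**Figure D2:**
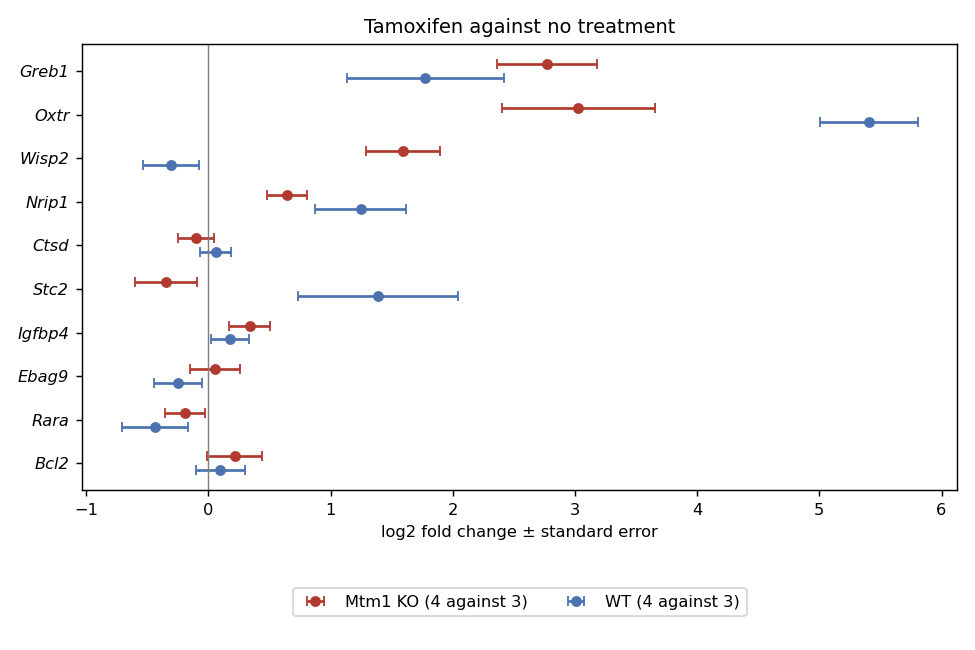
Log2 fold change of each of the 10 genes on tamoxifen against no treatment, in Mtm1 KO (4 libraries against 3) and WT (4 against 3), with bars of 1 standard error of the edgeR fit. Oxtr and Greb1 lie far to the right of 0 in both genotypes, Nrip1 at 1.25 and 0.64, Wisp2 at 1.59 in Mtm1 KO and -0.31 in WT, and Ctsd, Igfbp4, Ebag9, Rara and Bcl2 between -0.44 and 0.34.

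Stc2, a secreted glycoprotein hormone induced by estrogen and by stress of the endoplasmic reticulum, had a WT value that rested on 1 animal. It lies on chromosome 11 from 31357307 to 31370074 on the minus strand. It had 8.73, 8.26 and 3.28 CPM in WT, and 10.04, 44.9, 8.47 and 7.38 CPM in WT + TAM, where the second value, of replicate 6, stood far above the rest. In Mtm1 KO it had 3.42, 5.35 and 7.69 CPM, and in Mtm1 KO + TAM 4.77, 3.78, 4.33 and 4.50 CPM, inside the untreated range. The log2 fold change in WT was 1.39 ± 0.65 (SE; adjusted p = 0.488 in edgeR) and it was 0.36 without replicate 6 of WT + TAM. In Mtm1 KO it was -0.35 ± 0.25 (adjusted p = 0.837).

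The other 5 members had no separation between treated and untreated libraries in either genotype. Ctsd encodes the lysosomal protease cathepsin D and lies on chromosome 7 from 142375911 to 142388038 on the minus strand. It ranged from 618 to 851 CPM over the 14 libraries, with log2 fold changes of -0.10 ± 0.15 in Mtm1 KO and 0.06 ± 0.12 in WT (SE). A protein coding gene on the same strand shares 34.37% of its exon bases in the annotation, so the Ctsd values are uncertain. Igfbp4 (chromosome 11, 99041244 to 99054392, plus strand), which binds and restrains insulin-like growth factors, ranged from 85.6 to 191 CPM, with log2 fold changes of 0.34 ± 0.17 in Mtm1 KO and 0.18 ± 0.16 in WT and an average of 0.27 ± 0.12 (unadjusted p = 0.0386, adjusted p = 0.316 in edgeR). Ebag9 (chromosome 15, 44619175 to 44641515, plus strand), a Golgi protein that tempers secretion, ranged from 7.87 to 17.0 CPM, with log2 fold changes of 0.05 ± 0.20 and -0.25 ± 0.20. Rara (chromosome 11, 98927818 to 98974942, plus strand), the retinoic acid receptor alpha, ranged from 6.69 to 17.1 CPM, with log2 fold changes of -0.19 ± 0.16 in Mtm1 KO and -0.44 ± 0.27 in WT. Bcl2 (chromosome 1, 106538178 to 106714274, minus strand), which blocks the mitochondrial route to cell death, ranged from 6.35 to 12.6 CPM, with log2 fold changes of 0.22 ± 0.23 and 0.10 ± 0.20. For these 5 genes the adjusted p in edgeR was between 0.609 and 0.977 in the 2 tamoxifen comparisons, which does not show that their levels were equal.

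The second question was whether the panel differed between genotypes, before and on treatment. Without treatment, 8 members passed the filter (Greb1 and Oxtr did not), and 0 of the 8 were called in edgeR, against 3.6% of 14740 genes. DESeq2 and edgeR's exact test called 0 members too. In edgeR, 2 of the 8 had an unadjusted p of at most 0.05, against 30.1% of all genes, and 0 passed an adjusted p of 0.05, against 12.8%. Wisp2 had 2.10 to 3.55 CPM in Mtm1 KO and 3.64 to 5.72 in WT, a log2 difference of -0.81 ± 0.28 (SE; adjusted p = 0.0916 in edgeR), and Ebag9 had 7.87 to 13.02 against 14.9 to 16.8 CPM, a difference of -0.52 ± 0.19 (adjusted p = 0.108). Both groups of libraries were separate for these 2 genes, and also for Ctsd, at 750 to 810 CPM in Mtm1 KO against 636 to 689 in WT (0.28 ± 0.12, adjusted p = 0.173). These 3 of 8, of which 1 was higher, stand beside 36.3% of all genes tested and 17.3% on the higher side. Oxtr, below the filter, was at 0.266 to 0.963 CPM in Mtm1 KO against 0.0430 to 0.237 in WT, also without overlap (p = 0.1 in the exact permutation test, two-sided, which 3 against 3 libraries cannot go below). With the 16 libraries, 0 members were separate between genotypes, and the library labelled WT replicate 1 is one of the 2 added.

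Between the 2 treated groups, Wisp2, Greb1, Igfbp4 and Stc2 had the lowest p of the panel. With the threshold of 0.01 edgeR called 0 of the 10, against 6.72% of 14563 genes, and at 0.05 it passed 4, against 17% of genes, with 5 at an unadjusted p of at most 0.05, against 32.3%. DESeq2 called 1 member at 0.01 and the exact test 2. Wisp2 was higher in Mtm1 KO + TAM than in WT + TAM, 4.90 to 11.8 against 3.43 to 4.88 CPM, a log2 difference of 1.07 ± 0.25 (SE; adjusted p = 0.0153 in edgeR, and 0.00468 to 0.0491 without each library in turn, the lowest without replicate 14 of KO + TAM). Greb1 was higher too, 1.16 to 1.60 against 0.389 to 0.981 CPM (1.07 ± 0.33, adjusted p = 0.0489), and so was Igfbp4, 131 to 191 against 97.0 to 142 CPM (0.49 ± 0.15, adjusted p = 0.0474), where the libraries overlapped. Stc2 was lower, 3.78 to 4.77 against 7.38 to 44.9 CPM (-2.03 ± 0.52, adjusted p = 0.0218). Without replicate 6 of WT + TAM the Stc2 difference was -0.99 and its adjusted p 0.00526, and without replicate 13, 14 or 15 of KO + TAM the adjusted p was 0.0514 to 0.0652. Greb1 passed 0.05 without replicate 8 of WT + TAM (adjusted p = 0.0373) and in no other case of 1 library left out, where its adjusted p reached 0.127. Igfbp4 passed it without replicate 5 of WT + TAM (0.0191) or replicate 16 of KO + TAM (0.0282), and in the other 6 cases its adjusted p reached 0.116. Oxtr had 2.02 to 8.86 CPM in Mtm1 KO + TAM and 5.98 to 8.64 in WT + TAM (-0.82 ± 0.40, adjusted p = 0.183), and without replicate 16 of KO + TAM, the highest of its group, the difference was -1.45 (adjusted p = 0.00693). Nrip1 had 34.4 to 43.6 against 42.7 to 91.7 CPM (-0.65 ± 0.21, adjusted p = 0.0549). Greb1, Wisp2 and Stc2 had separate libraries (p = 0.0286 in the exact permutation test, two-sided, which cannot go lower with 70 splits), 3 of 10 beside 22.5% of all genes and, on the higher side, 2 beside 10.9%. The genotype comparisons move with scaling, since by library size alone the median gene was 0.33 higher in Mtm1 KO untreated and 0.27 higher on tamoxifen, against 0.02 and -0.01 with TMM. The genotype comparisons use the same libraries as the tamoxifen comparisons.

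**Figure D3:**
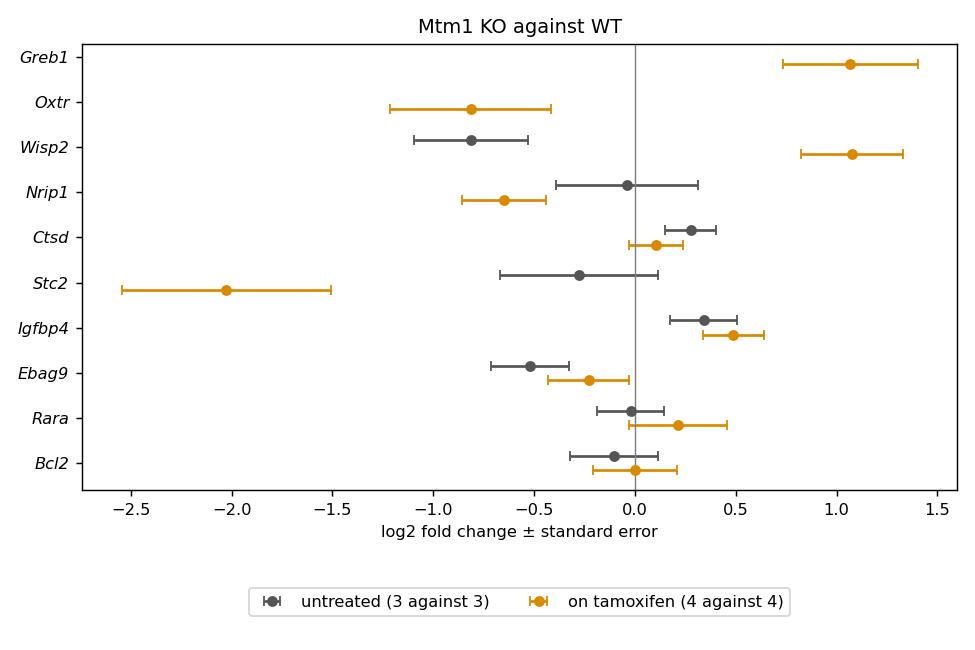
Log2 fold change of Mtm1 KO against WT for each gene, untreated (3 libraries against 3) and on tamoxifen (4 against 4), with bars of 1 standard error of the edgeR fit. Greb1 and Oxtr have no untreated point because they did not pass the filter there. Wisp2 lies at -0.81 untreated and at 1.07 on tamoxifen, and Stc2 at -2.03 on tamoxifen with 1 high WT + TAM library.

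The receptors and coregulators through which estrogens act were read from a list of 12 genes, of which 9 passed the filter in each pairwise tamoxifen comparison and 10 in the fit of 4 groups. In edgeR 0 of them were called on tamoxifen in Mtm1 KO, in WT or on average, with 0 at an adjusted p of at most 0.05. DESeq2 was not counted for these lists. Esr1, which encodes estrogen receptor alpha, had 1.84 ± 0.394 RPKM in WT (SD, n = 3), 1.84 ± 0.480 in WT + TAM (n = 4), 1.39 ± 0.243 in Mtm1 KO (n = 3) and 1.17 ± 0.192 in Mtm1 KO + TAM (n = 4). Its log2 fold change on tamoxifen was -0.19 ± 0.17 in Mtm1 KO and 0.0008 ± 0.19 in WT. Between genotypes it was lower in Mtm1 KO by a log2 fold change of -0.72 ± 0.17 untreated (adjusted p = 0.0291 in edgeR) and -0.92 ± 0.19 on tamoxifen (adjusted p = 0.00704), which passes the threshold. Between the 2 treated groups 7 of the 9 list genes tested were below 0. Of these, 2 were called lower, Esr1 among them, and 0 were called higher, beside 6.72% of all genes called in either direction. Esr2, estrogen receptor beta, had 0 to 18 counts per library and an average log2 fold change of 1.44 ± 0.66 (adjusted p = 0.330), and Ncoa3, the coactivator SRC-3, one of -0.14 ± 0.09 (adjusted p = 0.521).

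Another 22 genes known to respond to estrogen were read in the same way, and 16 passed the filter. In Mtm1 KO 0 were called in edgeR, with 10 of the 16 above 0, against 7 of 16 in WT and 6 of 16 on average. In WT 1 was called, beside 0.131% of all genes tested. Over both genotypes 2 were called, both higher, beside 0.591% of all genes. Pgr encodes the progesterone receptor, another classic target. It had 0 counts in each of the 3 WT libraries and 39 to 42 in WT + TAM, at least 43.4-fold higher when the floor is set at 3 counts for the whole WT group (adjusted p = 0.00447 in edgeR). In Mtm1 KO it had 0 to 2 counts and in Mtm1 KO + TAM 23 to 31, a ratio of 37.9 (95% Poisson interval 10.2 to 317, counting error only; adjusted p = 0.0600), and for the average of both genotypes the adjusted p was 5.00e-05. Pgr failed the filter between the untreated groups and passed through the treated libraries, so its p values and calls are descriptions. Xbp1, a transcription factor of the unfolded protein response that estrogen induces in breast cells, went from 18.7 ± 1.44 RPKM in WT (SD, n = 3) to 32.9 ± 3.48 in WT + TAM (n = 4), and from 25.4 ± 2.16 in Mtm1 KO (n = 3) to 35.0 ± 6.14 in Mtm1 KO + TAM (n = 4). Its average rise was 0.66 ± 0.10 on the log2 scale (adjusted p = 0.00282 in edgeR). The median log2 fold change of the list was 0.06 in Mtm1 KO and -0.04 in WT, near that of all genes.

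**Figure D4:**
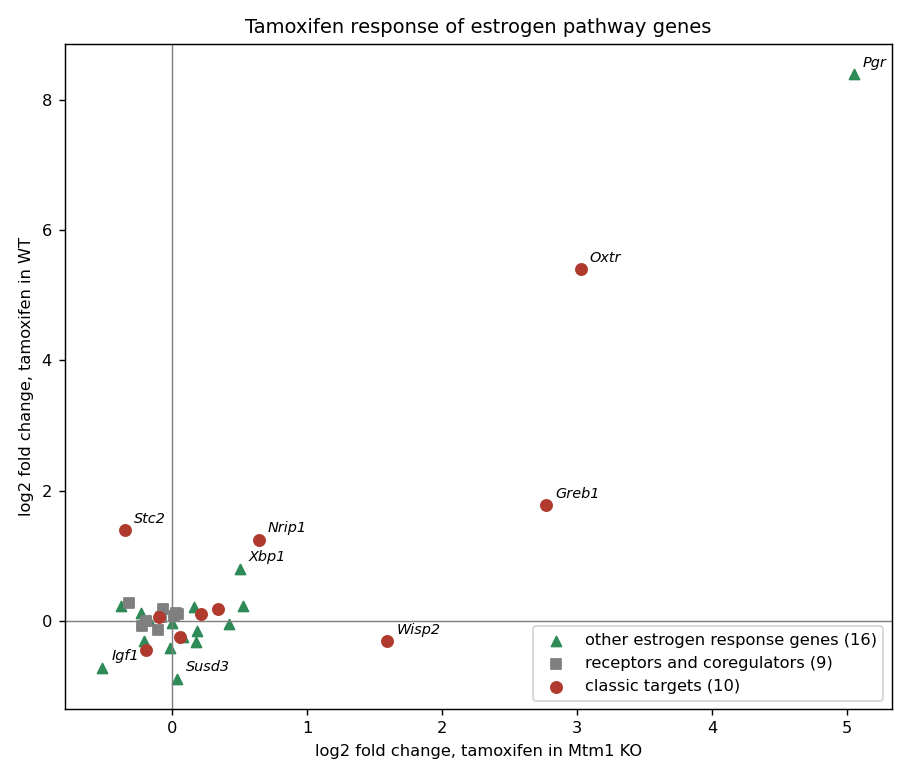
Log2 fold change on tamoxifen in Mtm1 KO (horizontal) and WT (vertical) for the 10 classic targets (circles), 16 other estrogen response genes (triangles) and 9 receptors and coregulators (squares), from edgeR. Pgr, Oxtr and Greb1 are the points far from 0 on both axes, Wisp2 on the horizontal axis alone, and the receptors and coregulators lie near 0. The Pgr point depends on the model's prior count, since untreated libraries had 0 to 2 counts.

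A list of 37 relatives of the members, such as other CCN proteins, IGF binding proteins, stanniocalcins, retinoic acid receptors and BCL2 family proteins, had 32 genes that passed the filter in the fit of 4 groups. In that fit 1 was called higher and 1 lower in edgeR, beside 0.591% of all genes, and 3 passed 0.05, beside 1.84%. Within either genotype 0 were called, beside 0% of all genes in Mtm1 KO and 0.131% in WT. Ctgf, a matrix protein of the CCN family like Wisp2, had 15.3 ± 0.473 RPKM in WT (SD, n = 3), 31.7 ± 8.72 in WT + TAM (n = 4), 87.6 ± 10.7 in Mtm1 KO (n = 3) and 111 ± 18.2 in Mtm1 KO + TAM (n = 4). Its average rise on tamoxifen was 0.73 ± 0.13 on the log2 scale (adjusted p = 0.00737 in edgeR). Igfbp5, a binding protein like Igfbp4, went the other way, from 112 ± 19.5 to 59.1 ± 13.9 RPKM in WT and from 87.6 ± 21.3 to 46.1 ± 7.52 in Mtm1 KO, an average log2 fold change of -0.90 ± 0.14 (adjusted p = 0.00339). Nrip3 had the largest average log2 fold change of the list, 1.84 ± 0.67 (adjusted p = 0.205), on 0 to 16 counts per library.

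The samples are whole muscle, in which fewer cells of a type and less RNA per cell cannot be told apart. None of the marker genes of 8 cell types was called on tamoxifen in edgeR in either genotype or on average, and 2 of 6 endothelial markers passed 0.05 on average. Beside the responses of Oxtr, Greb1 and Nrip1, the 6 endothelial markers were below 0 in both genotypes, with a median log2 fold change of -0.28 in Mtm1 KO and -0.43 in WT. Their summed level ran from 51.3 to 80.6 RPKM in WT and 41.9 to 54.1 in WT + TAM. It ran from 54.7 to 80.3 RPKM in Mtm1 KO and 42.7 to 59.3 in Mtm1 KO + TAM. The 6 fat cell markers had a median of -0.17 in Mtm1 KO and 0.75 in WT, with a summed level of 275 to 1500 RPKM in WT, 641 to 2228 in WT + TAM, 938 to 2036 in Mtm1 KO and 956 to 1554 in Mtm1 KO + TAM. Beside Wisp2, a gene of connective tissue cells, the 6 fibroblast markers had a median of -0.08 in Mtm1 KO and -0.29 in WT, with a summed level of 1007 to 1517 RPKM in Mtm1 KO and 1006 to 1071 in Mtm1 KO + TAM. In WT the summed level was 892 to 966 RPKM, and in WT + TAM it was 548 to 830, without overlap. The Schwann cell markers were above 0 for 5 of 5 genes in both genotypes (medians 0.29 and 0.20), the red blood cell markers below 0 for 5 of 5 in Mtm1 KO and 3 of 5 in WT (medians -0.32 and -0.08), and the medians of the smooth muscle and pericyte, immune cell and muscle fiber lists were 0.04, -0.02 and 0.10 in Mtm1 KO and -0.32, -0.12 and -0.01 in WT. Between genotypes, the muscle fiber list had a median of -0.74 untreated and -0.67 on tamoxifen and the immune list 0.83 and 0.75. No marker in these lists was at 0 in every library of the main set. Their part in the responses of the members was not tested.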

How the data were processed

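RNA from quadriceps of 16 mice was analysed from a table of counts and one of RPKM. Per the authors, reads were aligned to GRCm38 with STAR in 2 rounds and the counts per gene, deposited without scaling, came from HTSeq. Per the authors, the RPKM values are these counts scaled to library size and gene length, and over 6680 genes they followed the library totals within 0.048%. The submitters' processing notes name bcl2fastq 2.17, STAR 2.5.0c and Cufflinks 2.2.1, with no stated role. Not given in the sources used here are the annotation, the counting mode and the strand setting. Of 120 pairs of libraries, 0 had identical counts. Each library is a separate mouse by the study's methods.

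Counts of the groups compared were fitted in R 4.3.3 with edgeR 4.0.16 (TMM, filterByExpr at 10 counts per gene and 15 in total, quasi-likelihood test). SE is that of the fitted log2 fold change, and SD is between libraries. The alternatives comprised edgeR's exact test, DESeq2 1.42.0, limma 3.58.1 on log2 RPKM with pseudocounts of 0.1 and 1, other scalings, filters and thresholds, 1 fit of all groups, 16 libraries, 15 libraries (added after the data were seen) and each library left out in turn. Tested on simulated data in which 200 genes had a log2 change of 2, this test recovered 89% of these among 14794 genes for tamoxifen in Mtm1 KO and 78% among 14295 for WT. The changed genes were drawn from all genes tested, so these shares do not tell how often members with low counts would be called. In the data, Greb1 and Oxtr had log2 fold changes of 2.77 and 3.03 in Mtm1 KO and were not called there. Named list genes were those called on tamoxifen, the 2 with the largest fold in each list, Esr1 and Pgr. The members and lists were chosen with earlier results of these data known. Positions are from GENCODE vM21 and start sites from RefSeq.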

Additional observations from a re-analysis of the deposited data

Results flagged for a closer look

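In 40 groups of 4 libraries, the gap of the highest or lowest library to its neighbour was set against the range of the group, and it passed Dixon's 95% limit for 4 values in 2 groups, where chance alone would give about 1 in 20. Stc2 in WT + TAM had a ratio of 0.929, with replicate 6 at 44.3 CPM and the other 3 libraries at 7.28 to 9.90 CPM. Ctsd in WT had a ratio of 0.904, with the library labelled WT replicate 1 at 1178 CPM and the other 3 at 626 to 679 CPM, and this library is outside the main set and carried the low Mtm1 count. These CPM values were scaled over all 16 libraries.

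The genotype difference of Wisp2 ran in opposite directions, with every Mtm1 KO library of the main set below every WT library of it without treatment, and every Mtm1 KO + TAM library above every WT + TAM library. With 16 libraries the untreated groups overlapped, since the library labelled WT replicate 1 was at 2.89 CPM and KO replicate 9 at 3.50 CPM. The difference of the 2 responses to tamoxifen was 1.91 ± 0.40 on the log2 scale (SE; unadjusted p = 2.02e-04, adjusted p = 0.314 in edgeR's quasi-likelihood test over 15556 genes).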

How the results depend on the processing

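No paired analysis was possible because each library has a number of its own in the labels. Of the 10 members, 3 were called for tamoxifen in Mtm1 KO by DESeq2 and 3 by edgeR's exact test, where the quasi-likelihood test called 0. With at least 10 counts in every library Greb1 and Oxtr were not tested, and 0 members were called for tamoxifen in WT and 0 for the average response. limma on log2 RPKM put the average response at 1 member with a pseudocount of 0.1 and at 1 with a pseudocount of 1, against 2, and leaving out 1 library at a time gave 1 to 2. DESeq2 called 1 member for the difference of the responses. For the genotypes on tamoxifen, where 0 were called, 1 was called by DESeq2, 2 by the exact test, 4 at a threshold of 0.05, 2 by library size alone, 2 without the filter, 2 by limma with a pseudocount of 1, 1 in 1 fit of 4 groups and 0 to 1 without each library in turn. The number of members with separate libraries between genotypes was 4 untreated, with the untested Oxtr counted, against 0 with 16 libraries, and 3 on tamoxifen, against 3 to 5 without each library in turn.

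The sign turned in 46 alternatives for members that were not called. Between untreated genotypes, the log2 fold change became 0.29 by library size, 0.38 by limma (pseudocount 0.1) and 0.24 (pseudocount 1) for Nrip1, 0.031, 0.073 and 0.028 for Stc2, 0.29, 0.27 and 0.22 for Rara, and 0.21, 0.20 and 0.099 for Bcl2. In the same order it became 0.046, 0.069 and 0.059 for Ebag9 on tamoxifen. With 16 libraries it became -0.20 for Ctsd on tamoxifen in WT, 0.10 for the average response of Ebag9 (0.027 with 15), 0.035 for the difference of the Ctsd responses, and 0.039 for Rara (0.058 with 15) and 0.020 for Bcl2 between untreated genotypes. Without each library in turn, tamoxifen in Mtm1 KO gave -0.14 to 0.20 for Ebag9, and tamoxifen in WT -0.031 to 0.11 for Ctsd and -0.059 to 0.24 for Bcl2. The average response of Ctsd ran from -0.054 to 0.022 and the difference of the Bcl2 responses from -0.082 to 0.29. Untreated genotypes gave -0.38 to 0.34 for Nrip1, -0.13 to 0.11 for Rara and -0.27 to 0.044 for Bcl2, and on tamoxifen Bcl2 ran from -0.21 to 0.14. The cause was not tested. Of the other alternatives for single members, 1144 kept direction and side of the threshold. Precision is limited by 3 or 4 mice per group and, for Greb1 and untreated Oxtr, by counts of 1 to 29 per untreated library.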

Other observations

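The 2 libraries outside the main set had the following levels, scaled over 16 libraries. The library labelled WT replicate 1 had 0.464 CPM of Greb1, 0.464 of Oxtr, 2.89 of Wisp2, 13.1 of Nrip1, 5.47 of Stc2 and 144 of Igfbp4. The library labelled KO replicate 12 had 0.327 CPM of Greb1, 0.0363 of Oxtr, 1.56 of Wisp2, 14.4 of Nrip1, 6.53 of Stc2 and 178 of Igfbp4. Ebag9 was at 9.39 CPM in the first and 4.32 CPM in the second.

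The genes whose log2 CPM followed each member most closely over the 14 libraries were read by Pearson's r among 15556 genes, as a description of libraries that share groups and normalization. For Oxtr these were Gm16485 (r = 0.949), Flrt1 (0.938), and Gpx3 (0.934), which encodes a secreted glutathione peroxidase. For Greb1 they were Il17ra (0.919), Dio3 (0.909), which inactivates thyroid hormone, and Ppp1r15a (0.853). For Nrip1 they were Bmpr1b (0.918), the clock gene Per1 (0.895) and Foxk1 (0.887). For Wisp2 they were Socs3 (0.834), an inhibitor of cytokine signaling, Mapre2 (0.778) and Lrrc15 (0.750). The closest gene to Stc2 was Atmin (0.905), to Ctsd Edem2 (0.902), to Igfbp4 Frg1 (0.943), to Ebag9 Coil (0.885), to Rara Relt (0.953) and to Bcl2 Wdr3 (0.860).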
